A study of Homo sapiens with 2 samples.

Results

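A set of 10 classical targets of interleukin 4 (IL4) and the transcription factor STAT6 was followed in H2228 cells, namely CCL26, CCL24, CCL17, TGM2, SERPINB3, SERPINB4, ALOX15, CLCA1, FCER2 and BCL6. They were chosen by name, with earlier results of these data known. Every probe set annotated to only 1 of them was used, which gave 17 probe sets for 10 of the 19775 named genes on the array. H2228 is a human lung adenocarcinoma line, 1 line from 1 tumor, that carries the EML4-ALK variant 3 fusion and expresses STAT6. Expression was measured on Affymetrix U133 Plus 2.0 arrays, 1 for total RNA from cells given IL4 and 1 for that from untreated cells. The design text of the series gives IL4 at 100 ng/mL for 30 min. The labels of both samples also mention transfection for 48 h with EML4-ALK plasmids, siRNAs or negative controls without saying whether these cells received any, so the transfection state of either group is not known. With 1 array per condition there were no replicates, no test was made, and each difference below is IL4 minus untreated between 2 arrays, whose number limits the precision.

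IL4 binds IL4R paired with the common gamma chain or with IL13RA1, the receptor-bound JAK kinases phosphorylate STAT6, and STAT6 dimers enter the nucleus and bind palindromic DNA sites. In airway epithelium this pathway is known for eosinophil-attracting chemokines, mucus secretion, lipoxygenase activity and serpins of the squamous cell carcinoma antigen group. BCL6, a zinc finger repressor, binds DNA sites that resemble those of STAT6 and is known to repress IL4-responsive genes.

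The epithelial identity of the cells was visible on both arrays. All 6 epithelial markers (EPCAM, CDH1, KRT7, KRT8, KRT18 and KRT19) and all 4 lung adenocarcinoma markers lay above the median log2 level of all probe sets. This level, 5.03, served as the one below which a value was regarded as dim. With each gene taken at its highest-mean probe set, 12949 of 19775 genes had a mean at or above it. Values ran from 10.2 to 11.8 for the epithelial markers and from 6.13 to 7.88 for the lung adenocarcinoma markers. Over all marker lists, 4 genes passed 1.5-fold, of which NKX2-1 was lower (-0.97) and CDH1 (0.75), COL3A1 (0.78) and PAX5 (0.59) were higher. COL3A1 (4.45 with IL4, 3.67 in untreated cells) and PAX5 (4.85 with IL4, 4.26 in untreated cells) were dim on both arrays. The medians were 0.22 for the epithelial and -0.027 for the lung adenocarcinoma list. None of 5 eosinophil markers and none of 4 myeloid markers reached the median level on either array, nor did 3 of 5 B cell markers. It was reached on both arrays by 2 of 5 B cell, 1 of 3 T cell and 1 of 4 endothelial markers. PECAM1, the endothelial one, had 6.11 with IL4 and 5.96 in untreated cells, near SFTPB of the lung adenocarcinoma list (6.13 and 6.31). A value above the median level therefore does not by itself mark a cell type. The log2 of the summed linear level was 7.50 with IL4 and 7.35 in untreated cells for the B cell list, and 6.45 with IL4 and 6.43 in untreated cells for the eosinophil list. Among fibroblast markers, COL1A1 was high on both arrays, at 11.23 with IL4 and 10.82 in untreated cells, and the summed log2 level was 11.28 with IL4 and 10.88 in untreated cells. The part of these shifts in the values below was not tested.

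Of the 10 genes, 3 (CCL26, TGM2 and SERPINB4) passed 1.5-fold upward with IL4 and 1 (BCL6) passed it downward, against 3.21% of all genes higher and 4.39% lower. The 1.5-fold level is the one used in the study's results, while its methods name a 2-fold filter. At 2-fold, 2 of the target genes were higher and 0 lower, and the shares of all genes were not computed. The 6 genes that did not pass 1.5-fold lay between log2 differences of -0.083 and 0.47, and 5 of them were dim on both arrays. The median log2 difference of the 10 genes was 0.19, and that of all 19775 genes was 0. Signals of a bulk culture do not tell whether more cells carried a transcript or each cell carried more of it.

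**Figure D1:**
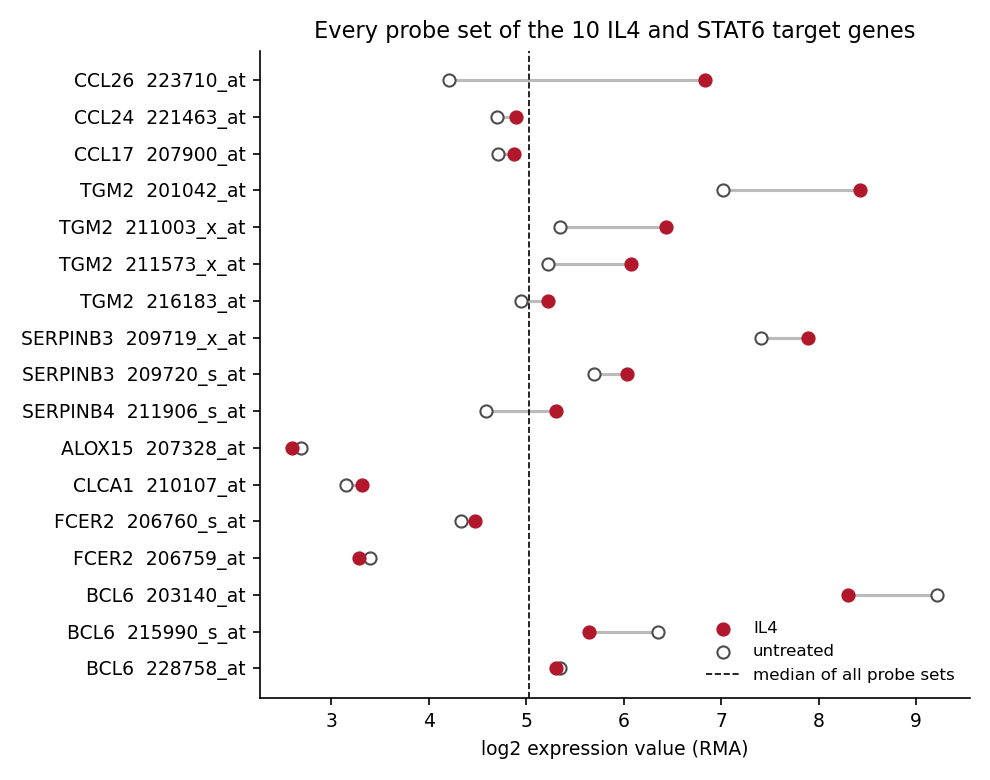
Log2 expression values (x axis, RMA) of all 17 probe sets of the 10 target genes (rows), 1 array per condition, with IL4 as filled red circles and untreated cells as open circles; the dashed line is the median of all probe sets, 5.03. CCL26 lies at 6.83 with IL4 and 4.21 in untreated cells, on either side of that line, while both values of CCL24, CCL17, ALOX15, CLCA1 and FCER2 lie left of it. Levels are to be compared within a probe set only.

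Among the chemokines, only CCL26 passed 1.5-fold. CCL26 is an eotaxin, a ligand of the receptor CCR3 through which eosinophils are attracted. Its single probe set gave 6.83 with IL4 and 4.21 in untreated cells on the log2 scale. The difference was 2.62. Because the untreated value was dim, no fold is given, and the difference was 1.81 with dim values raised to the median level and 0.086 with values raised to the 75th percentile of all probe sets. CCL24, a further eotaxin that also binds CCR3 and is the next protein-coding gene to CCL26 in the RefSeq annotation of GRCh38.p14, had values of 4.90 with IL4 and 4.70 in untreated cells. CCL17, a ligand of CCR4 on type 2 helper T cells, had 4.88 with IL4 and 4.71 in untreated cells. The log2 differences of CCL24 and CCL17 were 0.20 and 0.17. Of 9 further chemokines and receptors of type 2 inflammation that were measured, 0 passed 1.5-fold in either direction, where 3.21% of all genes were higher and 4.39% lower. Most of the 9 were dim. Their differences lay between -0.27 (CCL5) and 0.41 (CCR4), with a median of 0.15. CCL22, which shares the receptor CCR4 with CCL17, was above the median level on both arrays at 6.03 with IL4 and 5.90 in untreated cells. CX3CR1, which CCL26 can also bind, was dim on both.

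The promoter of CCL26 is shown because CCL26 had the largest difference of the 10 genes. The window runs from 250 bases before to 50 bases after the annotated start site and comes from RefSeq on GRCh38.p14. It was searched for the STAT-type palindromes TTCNNNGAA, the general form, and TTCNNNNGAA, the form with the longer spacer that STAT6 favors. Both read the same on either strand. Neither was present in these letters, so none are in capitals.
CCL26 promoter, chr7:75789697-75789996, minus strand: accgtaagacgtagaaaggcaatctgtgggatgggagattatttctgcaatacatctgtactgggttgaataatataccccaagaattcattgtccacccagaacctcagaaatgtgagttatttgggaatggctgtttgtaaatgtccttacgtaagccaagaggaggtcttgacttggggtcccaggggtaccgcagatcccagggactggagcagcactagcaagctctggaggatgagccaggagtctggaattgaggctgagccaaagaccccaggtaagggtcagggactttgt
Of 35116 annotated promoter windows of 300 bases, 7.66% held TTCNNNGAA, 6.44% held TTCNNNNGAA and 13.5% held at least 1 of them. The absence of a match speaks only of this window.

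TGM2 was higher with IL4 in all 4 of its probe sets, 3 of them past 1.5-fold. TGM2 encodes tissue transglutaminase, which crosslinks proteins and is a known IL4-induced gene of macrophages. The probe set that stands for the gene had 8.42 with IL4 and 7.02 in untreated cells, which is 2.64-fold higher. Both values were well above the median level. The further probe sets had 6.44 with IL4 against 5.35 in untreated cells, 6.08 with IL4 against 5.22 in untreated cells, and 5.22 with IL4 against 4.94 in untreated cells. Their log2 differences were 1.09, 0.86 and 0.28. The smallest of these came from the probe set with the lowest mean, whose untreated value was dim, and averaged over the 4 probe sets the log2 difference was 0.91. Of the 8 other transglutaminase family genes measured, 1 was at least 1.5-fold higher and 0 were lower, against 3.21% and 4.39% of all genes (median log2 difference 0.24). The 1 higher gene was TGM5, an epidermal transglutaminase, at 6.40 with IL4 and 5.69 in untreated cells, which is 1.64-fold. Of these 8 genes, 6 had a mean level below the median.

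**Figure D2:**
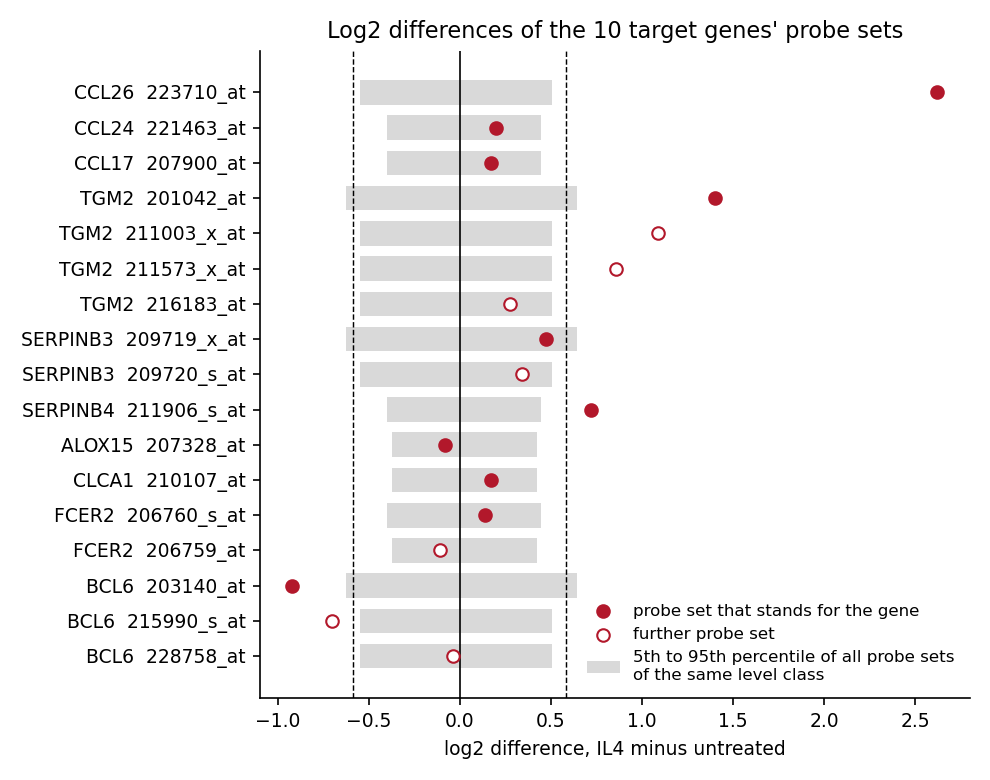
Log2 difference, IL4 minus untreated (x axis), of the 17 probe sets (rows), filled where the probe set stands for its gene and open otherwise. Gray bars span the 5th to 95th percentile of the differences of all probe sets in the same of 4 classes of mean level, and dashed lines mark 1.5-fold. CCL26 lies at 2.62, 3 of 4 TGM2 probe sets lie between 0.86 and 1.40, and the BCL6 probe sets lie at -0.92, -0.70 and -0.040.

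SERPINB3 and SERPINB4, the squamous cell carcinoma antigens, were both higher with IL4, on either side of 1.5-fold. SERPINB3 inhibits cysteine proteases of the papain type, and SERPINB4 inhibits chymotrypsin-like serine proteases such as cathepsin G. SERPINB4 had 5.31 with IL4 and 4.59 in untreated cells, a log2 difference of 0.72 from a dim untreated value. With dim values raised to the median level its difference was 0.28, short of 1.5-fold. SERPINB3 had 7.89 with IL4 and 7.41 in untreated cells, which is 1.39-fold higher. Its second probe set had 6.04 with IL4 and 5.70 in untreated cells, a log2 difference of 0.34. Both SERPINB3 probe sets lay within the 5th to 95th percentile of the differences at their level, whose upper ends were 0.64 and 0.51. The SERPINB4 difference lay above the upper end at its level, 0.44. A probe set annotated to both genes, which was not counted, had 6.86 with IL4 and 6.38 in untreated cells, a difference of 0.48. All 4 probe sets of the pair were therefore higher with IL4, between 0.34 and 0.72. The genes are neighbors and near-identical copies, and each of these probe sets is of a design that allows binding to several transcripts, so the split of signal between them is uncertain.

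The likeness of the copies extends to their promoters, of which the stretch with most of the differences is shown. Over the 300 bases of the RefSeq windows they differ at 4 positions and are 98.7% identical. The stretch of 80 bases below holds 3 of these, in capitals.
SERPINB3 promoter stretch, chr18:63661874-63661953, minus strand: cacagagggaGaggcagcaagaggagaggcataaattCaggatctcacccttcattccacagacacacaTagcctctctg
SERPINB4 promoter stretch, chr18:63644237-63644316, minus strand: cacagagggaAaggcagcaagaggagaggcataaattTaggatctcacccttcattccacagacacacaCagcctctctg
Neither promoter window held either STAT-type palindrome. Of 9 other clade B serpins measured, 2 passed 1.5-fold upward and 0 downward, against 3.21% and 4.39% of all genes (median log2 difference 0.19). SERPINB8, an inhibitor of furin, was 1.90-fold higher at 6.87 with IL4 and 5.94 in untreated cells, but its second probe set had 5.91 on both arrays. SERPINB13, a keratinocyte inhibitor of lysosomal cysteine proteases that lies next to SERPINB4, had 6.54 with IL4 and 5.78 in untreated cells, which is 1.68-fold higher. Of its 6 probe sets, 4 were higher, 1 had a difference of 0 and 1 was lower, and its log2 difference was -0.12 once probe sets whose design allows several transcripts were left out. SERPINB9, the granzyme B inhibitor, was just short of 1.5-fold at a log2 difference of 0.58. SERPINB11, on the other side of SERPINB3, was dim at 2.47 on both arrays.

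The target genes of lipid oxidation, mucus secretion and IgE binding, ALOX15, CLCA1 and FCER2, were dim and close to 0 in difference. ALOX15, the lipoxygenase that oxidizes arachidonic acid and is a known IL4 and IL13 target of airway epithelium, had 2.60 with IL4 and 2.69 in untreated cells. CLCA1, a secreted goblet cell protein that modulates chloride channels, had 3.32 with IL4 and 3.15 in untreated cells. FCER2, the low-affinity IgE receptor CD23 of B cells, had 4.48 with IL4 and 4.34 in untreated cells, and its second probe set had 3.29 with IL4 and 3.40 in untreated cells. The FCER2 probe sets thus differed in sign, at 0.14 and -0.11. All 6 probe sets of CCL24, CCL17, ALOX15, CLCA1 and FCER2 lay within the 5th to 95th percentile of the differences at their level, which ran from -0.37 to 0.42 in the lowest of 4 level classes and from -0.40 to 0.44 in the next.

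Several of these small differences were shared with many unrelated probe sets. The differences between the arrays recurred exactly, to 6 decimals, in 68.7% of all probe sets and in 91.0% of those below the median level, and 8.28% of all probe sets had a difference of exactly 0. The CLCA1 difference of 0.17 was shared by 159 other probe sets, the CCL17 difference of 0.17 by 121 and the higher FCER2 difference of 0.14 by 111. The differences of CCL26, CCL24, the first 3 TGM2 probe sets, the first SERPINB3 probe set and the first 2 BCL6 probe sets were shared by 0 others.

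Counts for the related lists were read against the shares over all genes, 3.21% higher and 4.39% lower, at which lists of this length hold few or no genes past 1.5-fold. Of 11 other genes of the lipoxygenase pathway, 0 passed it in either direction, and the median was 0. ALOX5, the lipoxygenase of leukotriene synthesis, was well above the median level at 8.21 with IL4 and 8.0 in untreated cells. Of 12 CLCA and mucus genes, 0 passed it, with differences between -0.33 and 0.40. AGR2, an endoplasmic reticulum protein involved in mucin production, was at 11.10 with IL4 and 11.43 in untreated cells, and the gel-forming mucin gene MUC5AC was at 5.51 with IL4 and 5.50 in untreated cells. CLCA2 and CLCA4, which flank CLCA1, were dim with differences of 0.16 and 0.15. Of 7 other IgE receptor genes and CD23 partners, 0 passed it. ADAM10, the protease that sheds CD23, was at 10.77 with IL4 and 11.06 in untreated cells.

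BCL6 was the only one of the 10 genes at least 1.5-fold lower with IL4. The probe set that stands for it had 8.30 with IL4 and 9.22 in untreated cells, which is 1.89-fold lower. The second probe set had 5.65 with IL4 and 6.35 in untreated cells, which is 1.62-fold lower. The remaining probe set had 5.31 with IL4 and 5.35 in untreated cells, a log2 difference of -0.040. All values were above the median level, and averaged over the 3 probe sets the difference was -0.55, short of 1.5-fold. BCL6 ranked 247th from the lowest among 19775 genes. Of 8 genes of its paralog, corepressors and related repressors, 0 passed 1.5-fold, where 3.21% of all genes were higher and 4.39% lower (median -0.096). PRDM1, a repressor that BCL6 itself represses in B cells, was at 5.73 with IL4 and 6.0 in untreated cells, and MTA3, a BCL6 corepressor subunit, was at 7.06 with IL4 and 7.50 in untreated cells.

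The BCL6 promoter is shown because it held the most matches of the windows searched. RefSeq gives BCL6 more than 1 start site, and the upstream window held 4 matches to TTCNNNGAA, in capitals, and 0 to TTCNNNNGAA.
BCL6 promoter, chr3:187745419-187745718, minus strand: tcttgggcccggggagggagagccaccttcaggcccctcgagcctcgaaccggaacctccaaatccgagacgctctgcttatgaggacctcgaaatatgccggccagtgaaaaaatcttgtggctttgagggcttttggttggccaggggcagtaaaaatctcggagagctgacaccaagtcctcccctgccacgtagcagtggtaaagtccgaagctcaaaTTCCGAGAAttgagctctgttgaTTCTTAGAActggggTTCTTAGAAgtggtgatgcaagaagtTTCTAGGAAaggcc
The matches were TTCCGAGAA, from 28 to 20 bases before the start, TTCTTAGAA, which occurred both at the start and from 10 to 18 bases after it, and TTCTAGGAA, from 36 to 44 bases after it. At least 4 such matches were found in 7 of 35116 windows, or 0.0199%, this window among them, and at least 2 in 0.456%. Because this window was picked after its matches were counted, these shares are descriptive and do not measure how unusual it is. The window at the downstream BCL6 start site held 0 matches of either kind. RefSeq windows were matched for 7 of the 10 genes (not CCL17, TGM2 and ALOX15), 10 windows in all, and 3 genes had a match. Besides BCL6 these were CCL24, with TTCAAGGAA from 80 to 72 bases before its downstream start site, and FCER2, with TTCAGAAGAA at its upstream start site and TTCTAAGAA from 185 to 177 bases before its downstream one. Over all annotated windows, 13.5% held at least 1 match of either kind, a share per window. No such share was computed per gene, and a gene with more windows has more chances of a match. A match is a description of the letters, not of binding.

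**Figure D3:**
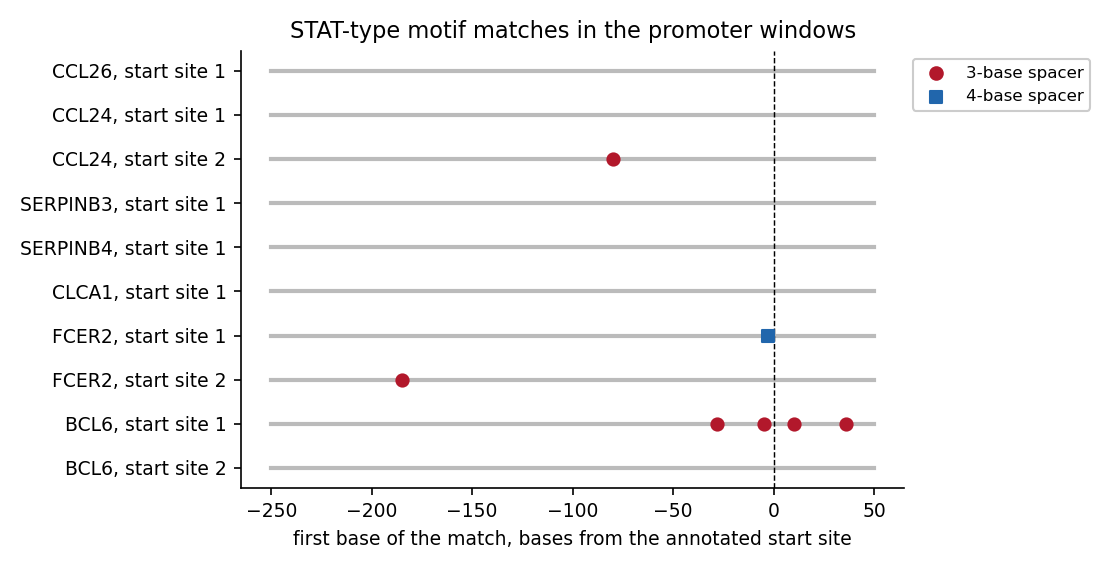
Matches to the STAT-type palindromes in the 10 RefSeq promoter windows (rows) by the distance of their first base from the annotated start site (x axis, in bases); circles have a spacer of 3 bases and squares one of 4, and gray lines show the window searched, from -250 to 50. The upstream BCL6 window holds 4 circles near the start site, and the CCL26, SERPINB3, SERPINB4 and CLCA1 windows hold none.

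The 10 genes were set beside other genes of the same response. Of 47 further measured genes on a list of IL4 and STAT6 responses, 8 were at least 1.5-fold higher, or 17.0% against 3.21% of all genes. The list was drawn up with earlier results of these data known, so the 2 shares are descriptive and their gap was not tested. None of the 47 was 1.5-fold lower, a count of 0, and the median log2 difference was 0.14. The 4 largest among those whose mean reached the median level were CD274, SOCS1, PDCD1LG2 and PPARG. Averaged over the probe sets of each gene, the log2 differences of CD274, SOCS1 and PDCD1LG2 were 2.44, 1.03 and 1.60, smaller than the 3.18, 2.24 and 2.01 of the probe set that stands for the gene. PDCD1LG2 was dim in untreated cells at 4.19, and its difference was 1.17 with dim values raised to the median level. VCAM1, named after its values were seen, had 6.40 with IL4 and a dim 3.54 in untreated cells, and its mean fell short of the level. PPARG, a nuclear receptor of lipid metabolism that IL4 is known to induce in macrophages, had 7.94 with IL4 and 6.77 in untreated cells in its single probe set, which is 2.26-fold higher. The carbonic anhydrase gene CA2, named after its values were seen, was 2.01-fold higher at 7.16 with IL4 and 6.16 in untreated cells. MAOA, a mitochondrial oxidase that IL4 is known to induce in monocytes, and CH25H, an enzyme of oxysterol synthesis, were short of 1.5-fold, at log2 differences of 0.55 and 0.54. Among genes of the list that did not pass, POSTN was at 2.67 with IL4 and 2.60 in untreated cells, CST1 at 4.74 with IL4 and 4.59 in untreated cells, and CDH26 at 5.10 with IL4 and 5.17 in untreated cells.
Of 9 genes from the receptors to STAT6, 1 passed 1.5-fold upward and 0 downward, against 3.21% and 4.39% of all genes. This was IL4R, the receptor chain that binds IL4 and also 1 of the 8 higher genes above, at 8.20 with IL4 and 7.31 in untreated cells. STAT6 itself was at 9.73 with IL4 and 9.51 in untreated cells, and IL2RG, the common gamma chain, was dim on both arrays.

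**Figure D4:**
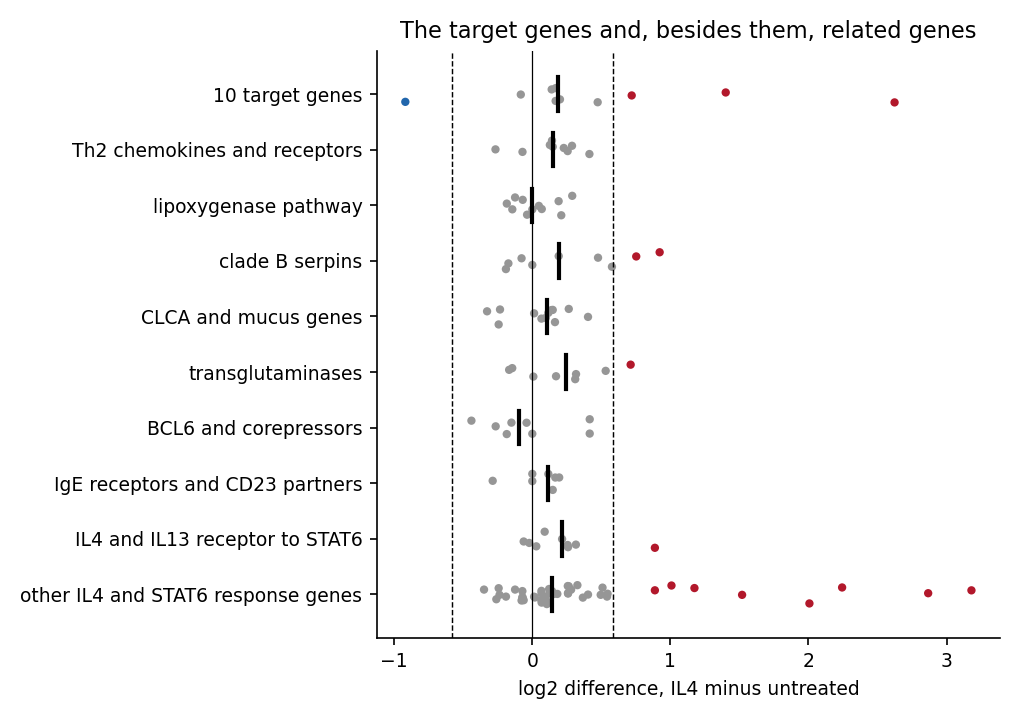
Log2 difference, IL4 minus untreated (x axis), of the 10 target genes and of related genes besides them (rows), with each gene as a point jittered along its row. Medians are drawn as black bars and 1.5-fold as dashed lines, red marks higher and blue lower genes beyond them; the target genes have 3 red points and 1 blue point, and the chemokine, lipoxygenase, mucus, corepressor and IgE receptor rows have none.

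By level, TGM2, SERPINB3 and BCL6 reached the median of all probe sets on both arrays, CCL26 and SERPINB4 reached it with IL4 only, and the remaining 5 genes reached it on neither array. Of all 19775 genes, 12949 had a mean that reached that level, and these were 1.5-fold higher in 4.34% of cases and lower in 5.88%. The 6826 genes below it were higher in 1.07% and lower in 1.55%. Since the mean takes in both arrays, a gene that is dim in untreated cells can reach the upper class through its IL4 value alone. CCL26 did so, as did PDCD1LG2 of the response list. The 2 arrays had like distributions, with medians of 5.04 with IL4 and 5.00 in untreated cells.

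**Figure D5:**
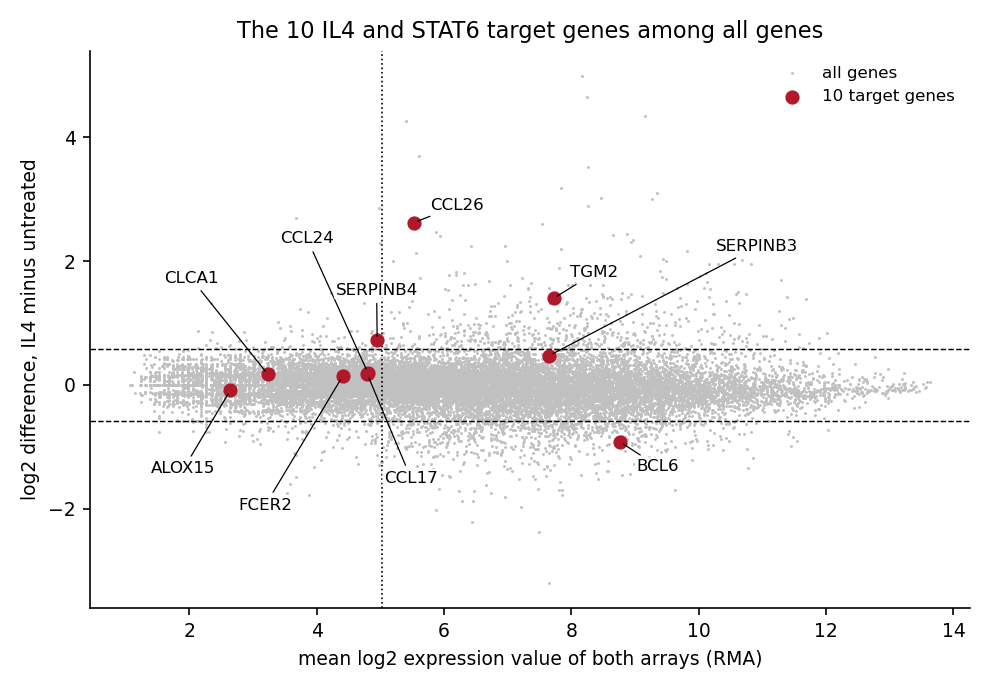
Log2 difference, IL4 minus untreated (y axis), against the mean log2 value of both arrays (x axis) for all 19775 genes in gray and the 10 target genes in red. Dashed lines mark 1.5-fold and the dotted line the median level, 5.03; CCL26 and TGM2 lie above the upper dashed line at 2.62 and 1.40, BCL6 lies below the lower one at -0.92, and left of the dotted line SERPINB4 lies at 0.72 and 5 genes lie between -0.083 and 0.20.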

How the data were processed

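Biotin-labelled cRNA was prepared from total RNA of H2228 cells and hybridized to 1 array per condition. The values deposited by the authors are on a log2 scale, 1 per probe set and array. RMA is the tool in the submitters' processing notes, with no version; it corrects background, normalizes between arrays and summarizes probes. For the raw data, GCOS is named in the study's methods. No scanner files were used here. Of 54675 probe sets, 41091 carried 1 gene in the array annotation, and 41037 of these were brought to the current symbol through RefSeq (GRCh38.p14). The probe set with the highest mean stood for a gene, every probe set of the 10 genes was reported, and the log2 difference was IL4 minus untreated. From each related list, genes past 1.5-fold whose mean reached the median level were named, up to 4 in each direction. Other genes are given for context and were chosen after their values were seen. The 10 genes and the 9 lists were chosen with earlier results of these data known. The calculation was tested on simulated data. Python 3.11.15 with numpy 2.4.6, pandas 2.3.3, statsmodels 0.14.6 and matplotlib 3.10.9 was used.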

Additional observations from a re-analysis of the deposited data

How the results depend on the processing

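The alternatives were the mean over probe sets, the probe set with the largest difference, centring, quantile normalization, a loess correction (fraction 0.3), a floor at the median level, a floor at the 75th percentile, probe sets of single-transcript design alone, and a 2-fold level. TGM2 stayed past 1.5-fold in all 8 alternatives that give a difference, with log2 differences from 0.91 to 1.45. CCL26 and BCL6 did in 7 of 8 each, the exceptions being the 75th percentile floor for CCL26 (0.086) and the mean over probe sets for BCL6 (-0.55). SERPINB4 did in 5 of 7, the exceptions being both floors. The count of lower target genes was 0 with the mean over probe sets and 0 at 2-fold, and the count of higher ones was 1 with the 75th percentile floor. Among the other IL4 and STAT6 response genes, 12 were higher with the probe set of the largest difference, 9 with the mean over probe sets and 9 with loess, against 4 with that floor and 5 of 40 with single-transcript probe sets, which leave fewer genes measured. That setting also removed SERPINB3 and SERPINB4, turned FCER2 to -0.11 and reversed SERPINB13 to -0.12. The shares of all genes past the level were not computed under the alternatives, and the choice of probe set or a floor can change them too. The counts under the alternatives are therefore descriptive. The standard deviation of the gap in log2 difference between the 2 highest-mean probe sets of a gene was 0.25. It was taken over 6056 genes with both probe sets at or above the median level, and was applied to dim genes too. Differences of single target genes moved by less than this 0.25 in 71 of 78 cases. This count, and the counts of alternatives for TGM2, CCL26, BCL6 and SERPINB4, include cases that could not move. Centring subtracted a median difference of 0. A gene with 1 probe set, such as CCL26, has the same value whichever rule picks or averages probe sets. Neither floor could move a gene with both values above it, such as TGM2 or BCL6. No paired analysis was possible because each condition has 1 array, and no replicate could be left out.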
